A study of Mus musculus with 9 samples.

Results

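Cntn1, Epha4, Gap43 and Amigo2 encode neuronal and glial surface or growth cone proteins that were followed in the muscularis externa (ME) of the mouse small bowel after intestinal manipulation (IM). They were taken by gene symbol from both expression tables and made up 4 of 531 genes and 8 of 634 transcripts. All 8 transcripts stood in the study's gliosis table, which held 155 transcripts of 109 genes. None stood in the table of changed genes, where 502 transcripts of 444 genes each differed by more than 2-fold in all 3 contrasts. ME was obtained from BL6 mice that were 8 to 12 weeks old. The 3 groups were IM3h, examined 3 h after IM, IM24h, examined 24 h after IM, and Control, with 3 libraries each. IM is a standardized handling of the exposed small bowel that models postoperative ileus, a transient loss of motility after abdominal surgery. Control animals appear in the labels as sham operated, but as naive in the table headers and in the paper's text, and the sources do not settle which holds. The labels do not say that each library came from a separate mouse.

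The ME holds the smooth muscle layers and, between them, the myenteric plexus, in which enteric neurons and enteric glia lie. Neurites in such ganglia are held and guided by surface proteins of several families. Contactins and other adhesion molecules of the immunoglobulin superfamily bind partners on neighbouring axons and glia. Eph receptors answer to ephrins on the cells they touch, and some leucine-rich repeat proteins mediate contact between cells. Growth cones at the tips of extending axons carry GAP-43 on the inner side of their membrane.

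Expression was measured with a 3′ RNA-Seq method that makes a single fragment from the end of each polyadenylated RNA. All values below are the authors' group means of normalized counts, summed over the listed transcripts of a gene. Values per library were not analysed here, so the means carry no SD and no test was run, and whether a difference exceeds the spread between libraries is not known. A difference was counted when it was more than 1.5-fold, the fold given in the study's methods. The depth per library is unknown. Per transcript of the gliosis table, normalized counts added up over the libraries to between 12.7 and 17004, with a median of 157. All 3 IM3h libraries carry identifiers of 1 number series and the other 6 carry those of another, so that series and a difference at 3 h cannot be told apart. In whole tissue, fewer cells of a type and less RNA per cell cannot be told apart either.

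The 4 genes did not move as a group. Cntn1 and Epha4 were lower after IM, more so at 24 h than at 3 h. Gap43 was lowest at 3 h and highest at 24 h, and Amigo2 stayed within 1.5-fold in every contrast. In the gliosis table, by contrast, the median gene was higher than in Control at both times, with a median log2 ratio of 0.52 at 3 h and 1.29 at 24 h.

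**Figure D1:**
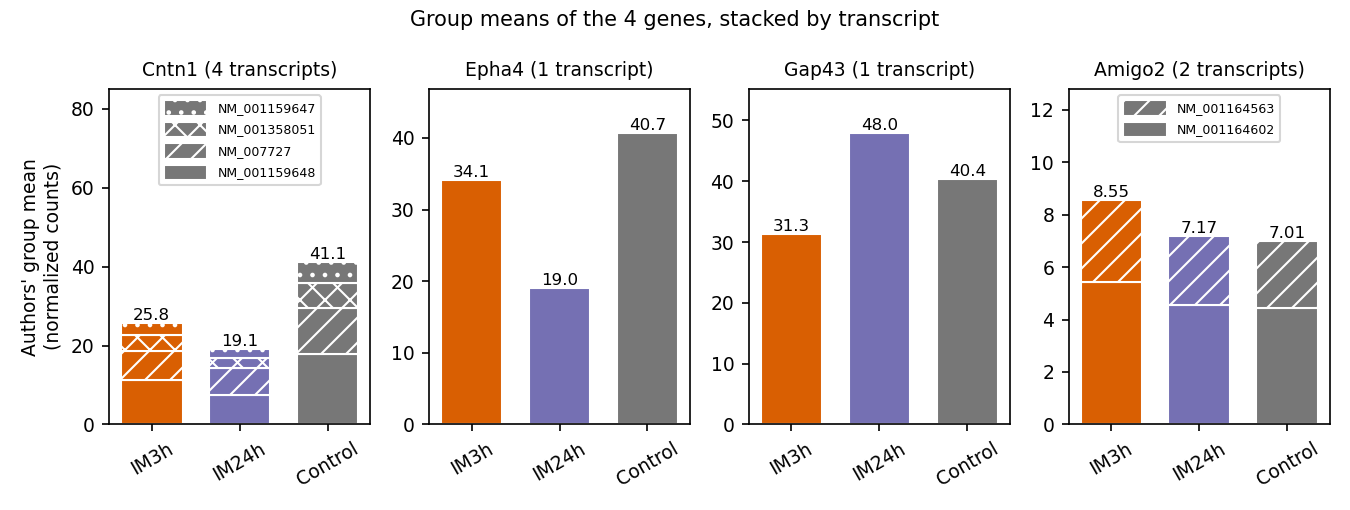
Authors' group means (normalized counts, linear axes from 0, a separate scale for each gene) of Cntn1, Epha4, Gap43 and Amigo2 in IM3h, IM24h and Control. Bars are stacked by transcript, as the legends name them, and the number on each bar is the summed mean. There are no error bars because only group means were used. Cntn1 and Epha4 have their lowest bar in IM24h, at 19.1 and 19.0, whereas Gap43 has its highest there, at 48.0.

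Cntn1 encodes contactin-1, a glycolipid-anchored adhesion molecule of the immunoglobulin superfamily that sits on axons and helps to form the junctions between axon and myelinating glia beside nodes of Ranvier. Its summed mean was 25.8 in IM3h, 19.1 in IM24h and 41.1 in Control, and the total over all libraries was 258. The order of the means was therefore Control, IM3h, IM24h. At 3 h the mean was 1.59-fold lower than in Control (log2 ratio -0.67), which lay just past the 1.5-fold line. At 24 h it was 2.16-fold lower (log2 ratio -1.11). Between the times the difference was smaller, with IM24h 1.36-fold lower than IM3h (log2 ratio -0.44, or -0.82 relative to the median gene of the gliosis table, which is past the line).

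Epha4 encodes a receptor tyrosine kinase that binds ephrins of both the A and the B class and is known for repelling growth cones. Its single transcript had a mean of 34.1 in IM3h, 19.0 in IM24h and 40.7 in Control, with a total of 282. The order of the means was the same as for Cntn1, but most of the distance lay between 3 h and 24 h. The IM3h mean was 1.19-fold lower than that of Control (log2 ratio -0.26). The IM24h mean was 2.14-fold lower than that of Control (log2 ratio -1.10) and 1.79-fold lower than that of IM3h (log2 ratio -0.84). At 24 h Cntn1 and Epha4 thus stood at nearly the same log2 ratio to Control, whereas at 3 h only Cntn1 was past the line. Relative to the median gene of the gliosis table, Epha4 was past it at 3 h as well, with a log2 ratio of -0.78.

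Gap43 encodes growth-associated protein 43, a membrane-bound phosphoprotein that is abundant in growth cones and is used as a marker of extending and regenerating axons. Its single transcript had a mean of 31.3 in IM3h, 48.0 in IM24h and 40.4 in Control, with a total of 359. The means at the early and the late time lay on opposite sides of Control, and neither was past the line against it. The IM3h mean was 1.29-fold lower than in Control (log2 ratio -0.37) and the IM24h mean was 1.19-fold higher (log2 ratio 0.25). From one time to the other the difference was larger, with IM24h 1.53-fold higher than IM3h (log2 ratio 0.61), which lay just past the line. Relative to the median gene of the gliosis table the log2 ratio of IM24h over IM3h was 0.23, which is within the line. On the same scale the ratios to Control were -0.89 for IM3h and -1.04 for IM24h, both lower and past the line. The median gene was itself higher than in Control, with a log2 ratio of 1.29 at 24 h. These ratios therefore place Gap43 within the table, and its own mean at 24 h was not lower than in Control.

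Amigo2 encodes a transmembrane adhesion protein with leucine-rich repeats and an immunoglobulin domain, and in rodents it is used as a marker of a reactive state of astrocytes. It had the lowest total of the 4 genes, 68.2. Its summed mean was 8.55 in IM3h, 7.17 in IM24h and 7.01 in Control. The IM3h mean was 1.22-fold higher than that of Control (log2 ratio 0.29), and the IM24h mean differed from that of Control by 1.02-fold (log2 ratio 0.03). The IM24h mean was 1.19-fold lower than the IM3h mean (log2 ratio -0.26). No pair of groups was past the line. Relative to the median gene of the gliosis table, however, the log2 ratio was -0.23 for IM3h over Control and -1.26 for IM24h over Control. For IM24h over IM3h it was -0.64, and the last 2 of these ratios were past the line. The median gene was itself higher than in Control at both times, so these ratios only place Amigo2 within the table.

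Read against the 109 genes of the gliosis table, the 4 genes lay towards its lower end at 24 h. At 3 h, 1 of the 4 genes, Cntn1, was more than 1.5-fold lower than in Control, as were 19.3% of the genes (21 of 109). None of the 4 was more than 1.5-fold higher at 3 h, against 47.7% of the genes (52 of 109). At 24 h, Cntn1 and Epha4 were more than 1.5-fold lower than in Control, as were 9.17% of the genes (10 of 109), so they made up 2 of those 10. None of the 4 was more than 1.5-fold higher at 24 h, against 67.9% of the genes (74 of 109). Between the times, Epha4 was more than 1.5-fold lower in IM24h than in IM3h, as were 20.2% of the genes (22 of 109), and Gap43 was more than 1.5-fold higher, as were 42.2% (46 of 109). The median log2 ratio of IM24h over IM3h in the table was 0.38. The study assembled the gliosis table around glial activation, so this background does not stand for all genes of the tissue.

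Ordered from the lowest ratio of IM24h over Control, Cntn1 took rank 2 and Epha4 rank 4 of the 109 genes. Neto2 was at rank 1 with a log2 ratio of -1.93, and Hgf and Wnt5a took ranks 3 and 5, at -1.10 and -1.09, so the ratios at ranks 2 to 5 were nearly the same. Amigo2 took rank 21 and Gap43 rank 25, although their ratios were close to or above 1, because most of the table was higher at 24 h. At 3 h the ranks were 16 for Cntn1, 28 for Gap43, 33 for Epha4 and 50 for Amigo2. Ratios to Control at the 2 times share the same Control libraries, so they are not independent of each other.

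**Figure D2:**
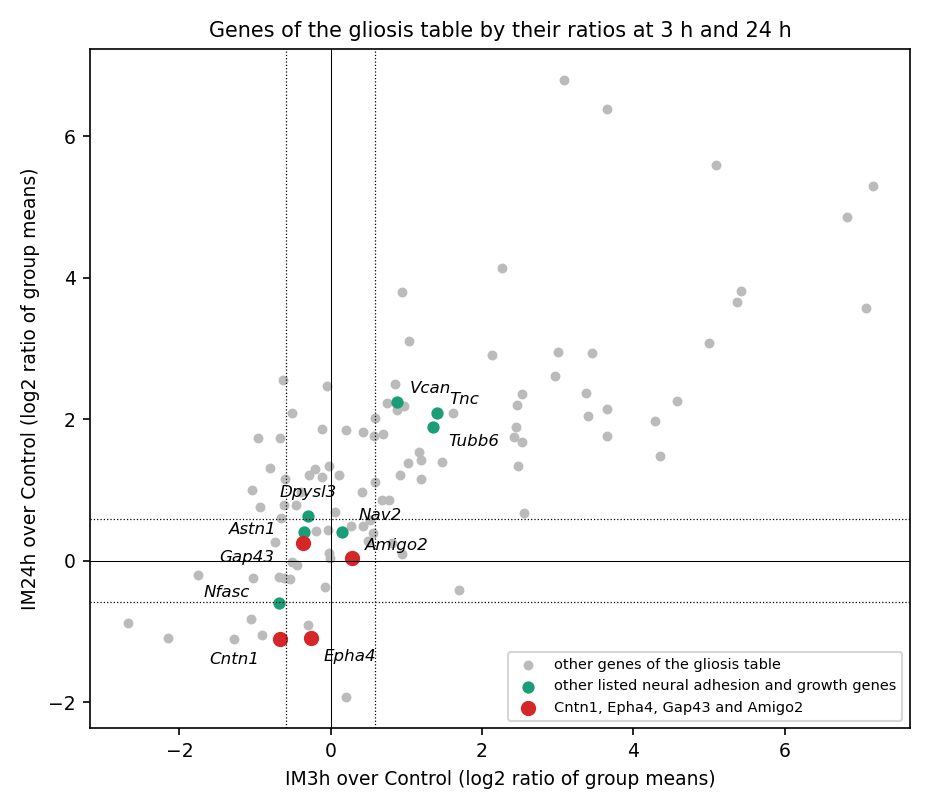
Each point is 1 of the 109 genes of the gliosis table, placed by the log2 ratio of the authors' group means of IM3h over Control (x axis) and of IM24h over Control (y axis). Red points are the 4 genes, green points are other genes of the fixed neural adhesion and axon growth lists, grey points are the rest, and dotted lines mark 1.5-fold. Cntn1 and Epha4 lie near -1.1 on the y axis, while Gap43 and Amigo2 lie within 1.5-fold on both axes. Rtn4 is absent because it stood only in the table of changed genes.

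Cntn1 was listed with 4 transcripts, and they did not keep the same proportions at 24 h. NM_001159648 had means of 11.3 in IM3h, 7.52 in IM24h and 17.9 in Control. NM_007727 had means of 7.38 in IM3h, 6.72 in IM24h and 11.7 in Control. The remaining pair was lower, NM_001358051 with 3.97, 2.65 and 6.31 and NM_001159647 with 3.24, 2.16 and 5.15 in IM3h, IM24h and Control. At 3 h all 4 transcripts had the same ratio to Control, 0.629. At 24 h the ratio was 0.420 for 3 of them, a mean 2.38-fold lower than in Control, but 0.572 for NM_007727, a mean 1.75-fold lower. The log2 ratios were -1.25 for those 3 together and -0.80 for NM_007727. NM_007727 accordingly made up 28.6% of the summed Cntn1 mean in IM3h, 35.3% in IM24h and 28.6% in Control. At the ratio of the other 3 its IM24h mean would have been 4.93, so the departure amounts to 1.79 normalized counts per library.

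**Figure D3:**
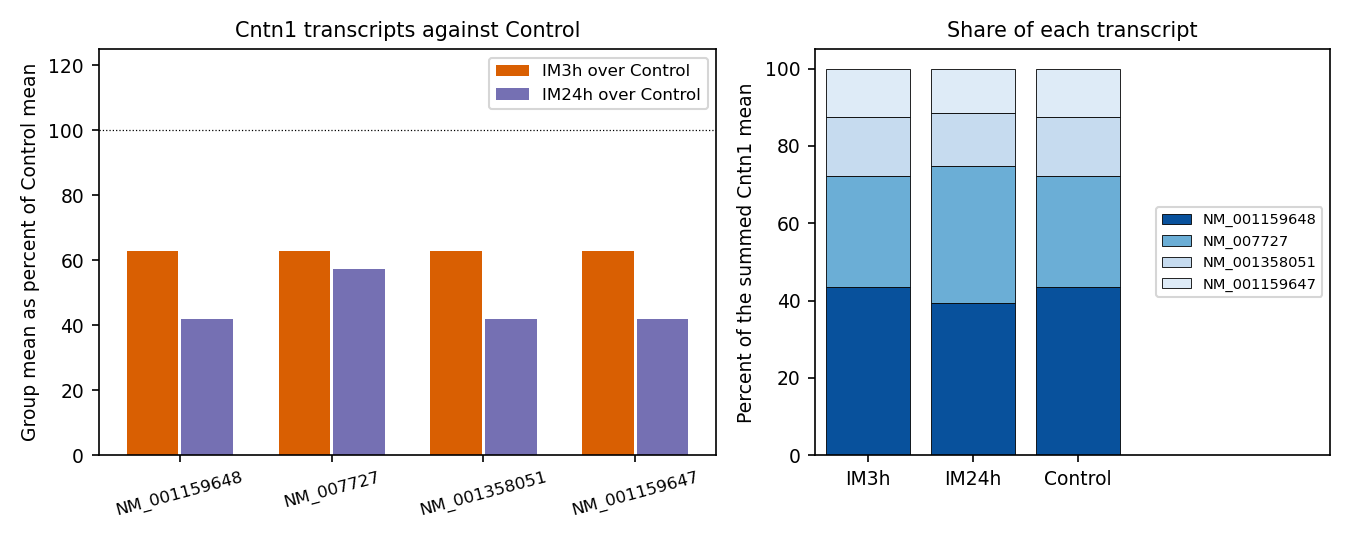
Left, authors' group mean of each Cntn1 transcript in IM3h and IM24h as a percent of its Control mean, with the dotted line at 100. Right, share of each transcript in the summed Cntn1 mean (percent) in IM3h, IM24h and Control. All 4 transcripts have the same ratio to Control at 3 h, and NM_007727 stands above the other 3 at 24 h, when its share is 35.3% against 28.6% in Control.

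Equal ratios between transcripts of a gene were common in these tables, and reads that fit several transcripts may have been divided among them. Of 33 genes of the gliosis table with more than 1 transcript, 11 had ratios to Control that were equal for all transcripts within 0.01 on the log2 scale at both times, and 22 did not, Cntn1 among them. In the mouse GENCODE M21 annotation of GRCm38, 7 of the 8 transcripts were found, NM_001358051 being the exception. The 3 Cntn1 transcripts found have 24 exons each but differ in their first exon and in their 3′ end, where a 3′ method takes its reads. NM_001159648 reaches farthest, with a last exon of 2455 bases. NM_007727 ends 14 bases earlier, and NM_001159647 ends 1853 bases earlier with a last exon of 602 bases. The pair that ends within 14 bases of each other was therefore the pair with different ratios at 24 h, whereas NM_001159647, with its own end, had the ratio of NM_001159648. How far these values separate the transcripts was not tested.

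Amigo2 was listed with 2 transcripts whose ratios were equal. NM_001164602 had means of 5.42 in IM3h, 4.54 in IM24h and 4.44 in Control, and NM_001164563 had 3.13, 2.62 and 2.57. The share of NM_001164602 was 63.4% in all 3 groups. Both accessions point to the same annotated transcript of 2 exons and 2801 bases, so they do not count as separate measurements. Epha4 (NM_007936, 18 exons, 6328 bases) and Gap43 (NM_008083, 3 exons, 1420 bases) had 1 transcript each.

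Promoter windows from RefSeq (GRCm38.p6), 250 bases before to 50 after a start, were held for 3 of the 4 genes, in 5 windows. The 250 bases before the start are shown for Cntn1 and Epha4, because these were the genes that were lower together at 24 h and because the Cntn1 transcripts that differed at 24 h start at different places. They are written 5′ to 3′ on the strand of the gene, and capitals mark CCAAT or its reverse complement ATTGG.
Cntn1 (NM_001159648 start), chr15:92050915-92051164, plus strand: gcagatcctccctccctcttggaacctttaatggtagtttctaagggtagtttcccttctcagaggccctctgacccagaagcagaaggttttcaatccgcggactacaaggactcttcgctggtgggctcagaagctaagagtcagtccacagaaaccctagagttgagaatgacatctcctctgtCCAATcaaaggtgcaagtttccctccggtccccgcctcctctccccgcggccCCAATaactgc
Cntn1 (NM_007727 start), chr15:92127878-92128127, plus strand: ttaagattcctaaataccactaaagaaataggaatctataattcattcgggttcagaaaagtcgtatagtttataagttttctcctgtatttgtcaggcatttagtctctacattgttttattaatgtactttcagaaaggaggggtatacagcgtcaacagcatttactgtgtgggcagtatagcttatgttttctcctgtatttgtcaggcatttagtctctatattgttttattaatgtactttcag
Cntn1 (NM_001159647 start), chr15:92161107-92161356, plus strand: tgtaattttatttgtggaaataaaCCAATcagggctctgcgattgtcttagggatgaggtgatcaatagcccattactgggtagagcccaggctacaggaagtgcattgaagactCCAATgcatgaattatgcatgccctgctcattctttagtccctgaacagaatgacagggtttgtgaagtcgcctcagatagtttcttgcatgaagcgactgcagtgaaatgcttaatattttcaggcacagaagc
Epha4 (NM_007936 start), chr1:77515089-77515338, minus strand: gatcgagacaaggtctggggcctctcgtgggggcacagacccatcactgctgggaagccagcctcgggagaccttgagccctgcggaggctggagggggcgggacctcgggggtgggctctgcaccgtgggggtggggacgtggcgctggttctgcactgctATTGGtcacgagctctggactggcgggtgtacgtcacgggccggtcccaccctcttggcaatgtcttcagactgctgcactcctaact
For the first and the third Cntn1 window the start is that annotated for the named transcript, and the second lies nearest to NM_007727, whose start in the GENCODE annotation is 60 bases away. The Cntn1 windows differ in base composition, with GC contents of 55.3%, 34.7% and 45.0% in the order shown, against 64.0% for Epha4 and a median of 52.7% over all 32851 windows. The first Cntn1 window held CCAAT at 63 and 11 bases before the start and the third held it at 226 and 135 bases before the start. The Epha4 window held it once, on the other strand, at 88 bases before the start. CCAAT on either strand was present in 37.4% of all windows. It was also present in the window of Amigo2, a gene that did not differ by 1.5-fold. The second Cntn1 window, nearest to the transcript with the higher ratio at 24 h, held no CCAAT and held TATAAA on 1 of its strands, as 13.6% of all windows did. GGGCGG on either strand was found once in the Epha4 window, 5 times in the Amigo2 window and in 35.7% of all windows. A match to these letters is a description of the sequence and shows no binding.

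Other genes of the same pathways were counted from 5 lists of 103 genes, of which 12 were listed in either table, the 4 genes included. In the contactin, L1 and neurofascin list, 4 of 20 genes were listed, of which 1 was higher and 2 were lower by more than 1.5-fold at both times. The median log2 ratio to Control of the 4 listed genes was -0.51 at 3 h and -0.09 at 24 h, against 0.52 and 1.29 over the gliosis table. Nfasc, which encodes neurofascin, an axonal and glial partner of contactin-1, had means of 5.38 in IM3h, 5.74 in IM24h and 8.67 in Control. Its log2 ratios were -0.69 at 3 h and -0.60 at 24 h, the latter only just past the line, which is 0.585 either way. These means are small, and the 3 transcripts of Nfasc differed by up to 1.16 in their log2 ratio at 3 h. Cntn1 and Nfasc were the pair in that list with lower means at both times. Tnc, which encodes the matrix protein tenascin-C, a known ligand of contactin-1, went the other way, with means of 211 in IM3h, 340 in IM24h and 79.8 in Control (log2 ratios 1.40 and 2.09). Astn1, which encodes the neuronal adhesion protein astrotactin-1, had 4.18 in IM3h, 7.12 in IM24h and 5.36 in Control and was not past the line against Control.

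In the growth cone and neurite cytoskeleton list, 4 of 20 genes were listed, Gap43 included. None was more than 1.5-fold lower than Control at either time, against 19.3% of the gliosis table at 3 h and 9.17% at 24 h. At 3 h 1 of the 4 was more than 1.5-fold higher, against 47.7%, and at 24 h 2 were, against 67.9%. The median log2 ratio of the 4 at 24 h was 0.52, against 1.29 over the gliosis table. Dpysl3, which encodes a collapsin response mediator protein of growing axons, had means of 63.5 in IM3h, 121 in IM24h and 77.9 in Control (log2 ratios -0.30 and 0.64). Its order of means was the one seen for Gap43, with IM24h highest and IM3h lowest. Tubb6, which encodes a beta-tubulin that is not restricted to neurons, had 213 in IM3h, 307 in IM24h and 83.1 in Control. Nav2, which encodes a neuron navigator protein, had 33.5 in IM3h, 39.8 in IM24h and 30.2 in Control and stayed within 1.5-fold of Control. The 2 transcripts of Nav2 differed in their log2 ratio to Control by 0.54 at 3 h and 0.71 at 24 h.

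Epha4 was the only listed gene of 21 Eph receptors and ephrins, and Amigo2 the only one of 17 leucine-rich repeat adhesion genes, so the ligands and relatives of both were not analysed here. Among 25 axon guidance and matrix inhibitor genes, 2 were listed and both were more than 1.5-fold higher at both times, as were 47.7% of the genes of the gliosis table at 3 h and 67.9% at 24 h. Vcan, which encodes the proteoglycan versican, had means of 13.5 in IM3h, 34.8 in IM24h and 7.33 in Control. The 4 transcripts of Vcan differed in their log2 ratio to Control by up to 1.58 at 3 h and 2.35 at 24 h. Rtn4, which encodes the neurite growth inhibitor Nogo, had means of 63.3 in IM3h, 191 in IM24h and 19.1 in Control. It came from the table of changed genes, where every transcript differed by more than 2-fold.

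Likeness between genes was measured as the distance in the plane of both log2 ratios to Control, over 3 group means. Each of the 4 genes was compared with the 100 other genes of the gliosis table that had a total of at least 30. Cntn1 and Epha4 were each among the 3 nearest genes of the other, at a distance of 0.41. The gene nearest to Cntn1 was Ltbp4 (0.25), and the third was Myl9 (0.42). The gene nearest to Epha4 was Myl9 (0.20), and Ltbp4 was the third (0.65). Both genes thus had the same pair of neighbours, one of which, Myl9, is the myosin regulatory light chain of smooth muscle. Gap43 was nearest to Astn1 (0.16), Lamp1 (0.24) and Hspb6 (0.30). Amigo2 was nearest to Ggta1 (0.30), S1pr3 (0.32) and Fgl2 (0.32), and no gene lay within 0.25 of it. Gap43 and Amigo2 were 0.69 apart, and every other pair of the 4 genes, apart from Cntn1 with Epha4, was at least 1.25 apart.

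Markers of the cell types in the preparation moved as well, and their part in the results was not tested. Of 17 enteric neuron markers only Vgf, a secreted neuropeptide precursor, was listed, with means of 24.7 in IM3h, 20.5 in IM24h and 4.46 in Control, so the number of neurons could not be followed by structural neuronal genes. Of 12 enteric glia markers 4 were listed, with summed means of 147 in IM3h, 223 in IM24h and 196 in Control. Gfap, the intermediate filament of glia, had log2 ratios to Control of 1.62 at 3 h and 2.09 at 24 h. The 2 transcripts of Gfap differed in that ratio by 0.73 at 3 h and 2.93 at 24 h. Gja1, a gap junction protein, had log2 ratios of -0.54 and -0.26. Of 11 smooth muscle markers 3 were listed, with summed means of 2350 in IM3h, 1940 in IM24h and 2866 in Control. Most of that sum was Myl9, with 1963 in IM3h, 1291 in IM24h and 2414 in Control, the same order of means as for Cntn1 and Epha4. The other 2 smooth muscle markers did not have that order. Flnc, which encodes filamin C, had 110 in IM3h, 257 in IM24h and 56.4 in Control, and Hspb6, which encodes a small heat shock protein, had 277 in IM3h, 392 in IM24h and 395 in Control. At 24 h the 3 markers had a median log2 ratio of -0.01. The 7 listed of 13 monocyte and macrophage markers summed to 78.4 in IM3h, 379 in IM24h and 47.1 in Control. At 3 h 6 of these 7 were more than 1.5-fold higher than in Control and 1 was lower. The 4 listed of 10 neutrophil markers summed to 20.0 in IM3h, 259 in IM24h and 3.88 in Control, with 3 higher and 1 lower at 3 h. At 24 h all the listed markers of both cell types were higher. The 5 listed of 11 epithelial markers came from the table of changed genes as well. They summed to 485 in IM3h, 63.4 in IM24h and 224 in Control, an order that none of the 4 genes had. No listed marker had a mean of 0 in any group.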

How the data were processed

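RNA from ME was made into QuantSeq 3′ libraries, and all were read single-end on the same lane. Partek, with no version, is the software that the submitters' notes give. The aligner, genome build and normalization are not given in the sources used here. The authors deposited, per RefSeq transcript, group means (LSMean) and totals of normalized counts as an expression signal. Each total was 3 times the sum of the 3 group means. The tables also hold the authors' own p-values, FDRs, ratios and fold changes for each contrast, and a further table holds their gene ontology enrichment. None of these was used.

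Transcript means were summed per gene, and log2 ratios of the sums were taken with no pseudocount and no filter (Python 3.11.15, pandas 2.3.3, NumPy 2.4.6). The computation was tested on simulated data. The column headed naive was read as Control. The background is the 109 genes of the gliosis table. Named genes were the 4 genes, listed genes of 5 pathway lists, and the 3 genes of the gliosis table nearest to each of the 4. Neto2, Hgf and Wnt5a were named after their values were seen. The values of 1 listed marker gene are not reported here singly. The members, lists and rules were chosen with earlier results of these data known. The alternatives were pseudocounts of 0.5 and 1, the transcript with the largest total alone, centring on the table median, a fold line of 2, a minimum total of 90, and both tables together.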

Additional observations from a re-analysis of the deposited data

How the results depend on the processing

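The 12 ratios of the 4 genes moved by less than 1.5-fold and kept their side of the 1.5-fold line with pseudocounts of 1 and 0.5 and with the transcript with the largest total alone. Subtracting the median log2 ratio of the gliosis table moved 9 of the 12. It turned the direction of none that was past the line, but it ended the call of Gap43 between the times, and it turned the ratios of Gap43 and Amigo2 at 24 h over Control, which were not past the line, to lower and past it, and the ratio of Amigo2 at 3 h over Control to -0.23. The median log2 ratio of the gliosis table to Control was itself above 0, at 0.52 at 3 h and 1.29 at 24 h. A centred ratio therefore places a gene within that table. Centred log2 ratios at 24 h over Control were -2.40 for Cntn1, -2.39 for Epha4, -1.04 for Gap43 and -1.26 for Amigo2. At 3 h over Control they were -0.78 for Epha4 and -0.89 for Gap43. For IM24h over IM3h they were -0.82 for Cntn1, 0.23 for Gap43 and -0.64 for Amigo2. Centred, 38 genes were lower at 3 h, and 36 were higher and 39 lower at 24 h. With a fold line of 2, 7 genes were lower at 3 h and 6 at 24 h. Over both tables, 531 genes of which most were selected for their fold, 272 were higher and 222 lower at 3 h, 404 higher and 101 lower at 24 h, and 336 higher and 152 lower in IM24h than in IM3h. Every other count stayed within 1.5 times its value. No paired analysis was possible because only group means were used, and leaving out replicates was not run for the same reason. Without values per library, neither the spread between replicates nor the depth behind a mean can be given.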
